A study of Mus musculus with 15 samples.

Results

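Hmgcs1, the gene of the cytosolic HMG-CoA synthase, was matched by name to 1 of the 59709 distinct probes of the array. This probe had 1 spot and carried the RefSeq identifier NM_145942. Hmgcs1 was 1 of 112 genes found, with 116 probes, by matching the identifiers printed on the array to the RefSeq gene table. Whether a probe known by code alone also reads Hmgcs1 was not tested. Mouse brain RNA, labelled with Cy3, was hybridised to one-colour Agilent arrays with probes for long noncoding RNAs and some mRNAs. The APP/PS1 groups held brains taken at 1, 3, 6 and 9 months of age, and the WT group held wild type brains, all on a background labelled C57BL. APP/PS1 mice carry transgenes for mutant amyloid precursor protein and mutant presenilin and form amyloid plaques with age. The labels name neither the promoter of the transgenes nor the age of each WT mouse, though the design text speaks of controls matched for age, so age and genotype cannot be told apart in a comparison with WT. Each group was labelled with 1 male and 2 females, while the design text names males.

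The labels list 15 samples, and 14 arrays were used, since the third WT sample was not analysed here. Replicates 2 and 3 at 1, 3 and 6 months were near-identical arrays: the residuals of the 1200 spots of the 20 negative probes had a correlation between 0.800 and 0.825, where no other pair, of 88, exceeded 0.240. The arrays of such a pair entered as 1 sample, their average. The samples were then 2 at 1 month, 2 at 3 months, 2 at 6 months, 3 at 9 months and 2 of WT, 11 in all. Arrays had a 75th percentile of intensity between 384 and 566 units, and 68.1% to 82.4% of spots lay well above background. The 3 arrays at 9 months were scanned at 354 V, a setting no other group had, so scan and age cannot be told apart for that group. A voltage of 356 V was used for the WT arrays and for replicates 1 and 2 of the younger ages. None of the 23 markers of neurons, glia, choroid plexus, vessels and blood that were looked for had a named probe, so the labelled tissue was not checked by markers. In bulk brain RNA, a change in the number of cells of a type cannot be told apart from a change of RNA per cell.

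HMG-CoA synthase of the cytosol joins acetyl-CoA to acetoacetyl-CoA, and its product is reduced by HMG-CoA reductase on the way to mevalonate, isoprenoids and cholesterol. The brain makes nearly all of its own cholesterol, with much of the synthesis in oligodendrocytes during myelination and in astrocytes later. When sterols in the endoplasmic reticulum are low, the factor SREBP2 is released and binds sterol regulatory elements in the promoters of Hmgcs1 and other genes of the pathway.

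The promoter of Hmgcs1 is shown because this control acts there. The 250 bases before the gene's start, chr13:119690101-119690350 on the plus strand of GRCm38.p6, are given from RefSeq. Capitals mark matches to the sterol regulatory element motif TCACNCCAC and to the CCAAT box, searched on both strands.
Hmgcs1 promoter: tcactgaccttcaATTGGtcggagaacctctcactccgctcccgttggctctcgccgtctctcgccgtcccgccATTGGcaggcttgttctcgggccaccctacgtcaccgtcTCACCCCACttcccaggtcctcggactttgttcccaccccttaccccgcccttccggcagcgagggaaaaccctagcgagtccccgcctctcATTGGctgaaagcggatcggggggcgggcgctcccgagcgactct
The sterol regulatory element motif had 1 match, TCACCCCAC, from 137 to 129 bases before the start. Of the 32851 RefSeq promoters of the same length, 1.05% held a match to it. The CCAAT box had 3 matches, all as ATTGG and so on the other strand, and 33.8% of promoters held at least 1. The GC box motif GGGCGG, not capitalised, had 2 matches and occurred in 32.7% of promoters. These motifs do not overlap each other here. A match describes the letters alone, and no binding was measured in this study.

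Hmgcs1 RNA was readily detected in every brain. The spot was well above background, unsaturated and free of outlier flags on all 14 arrays, with a raw signal of at most 9.14% of the scanner's saturation value. The processed intensity was 52229, 50306 and 50613 units on the arrays at 1 month. At 3 months it was 40041, 46443 and 45176 units. At 6 months it was 52510, 69725 and 69379 units. The 3 arrays at 6 months differed most among themselves, and the overall brightness of an array entered these raw values. At 9 months it was 61570, 61474 and 63202 units. In WT it was 39857 and 43269 units. The scanner software put the error of each of these at 10%.

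Levels were then expressed as the ratio of the spot to the 75th percentile intensity of its own array. Hmgcs1 stood at 110 and 103 times the percentile in the samples at 1 month. It stood at 104 and 113 times at 3 months, and at 118 and 123 times at 6 months. Both values from 6 months lay above all values from 1 and 3 months, as was so for 17.7% of the probes tested. At 9 months the ratios were 126, 116 and 121, against 98.7 and 106 in WT. The near-identical arrays of a pair differed by 0.019 to 0.032 on the log2 scale. That is less than the SD between samples within each group, which ran from 0.046 to 0.080.

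On the log2 scale the group means of this ratio were 6.74 ± 0.071 (SD, n = 2) at 1 month, 6.76 ± 0.080 (SD, n = 2) at 3 months, 6.91 ± 0.046 (SD, n = 2) at 6 months, 6.92 ± 0.061 (SD, n = 3) at 9 months and 6.68 ± 0.077 (SD, n = 2) in WT. The order from the highest was 9, 6, 3 and 1 months and then WT. Neighbours in this order overlapped in their samples, with log2 differences of 0.0057 for 9 against 6 months, 0.023 for 3 against 1 month and 0.058 for 1 month against WT, except 6 and 3 months. Those 2 groups did not overlap and lay 0.15 apart, more than the SD of either, but the difference did not pass the test. At least 17.7% of the probes tested were likewise higher at 6 than at 3 months without overlap. That is the share with 6 months above both 1 and 3 months. The limma adjusted p were 0.967, 0.895 and 0.723 for the first 3 pairs and 0.296 for 6 against 3 months. The 5 samples of 6 and 9 months all lay above the 6 samples of 1 and 3 months and WT, with a gap of 0.039 between the nearest samples. Of the 45901 probes tested, 5.68% showed this same separation in the same direction, so it was not rare on these arrays.

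**Figure D1:**
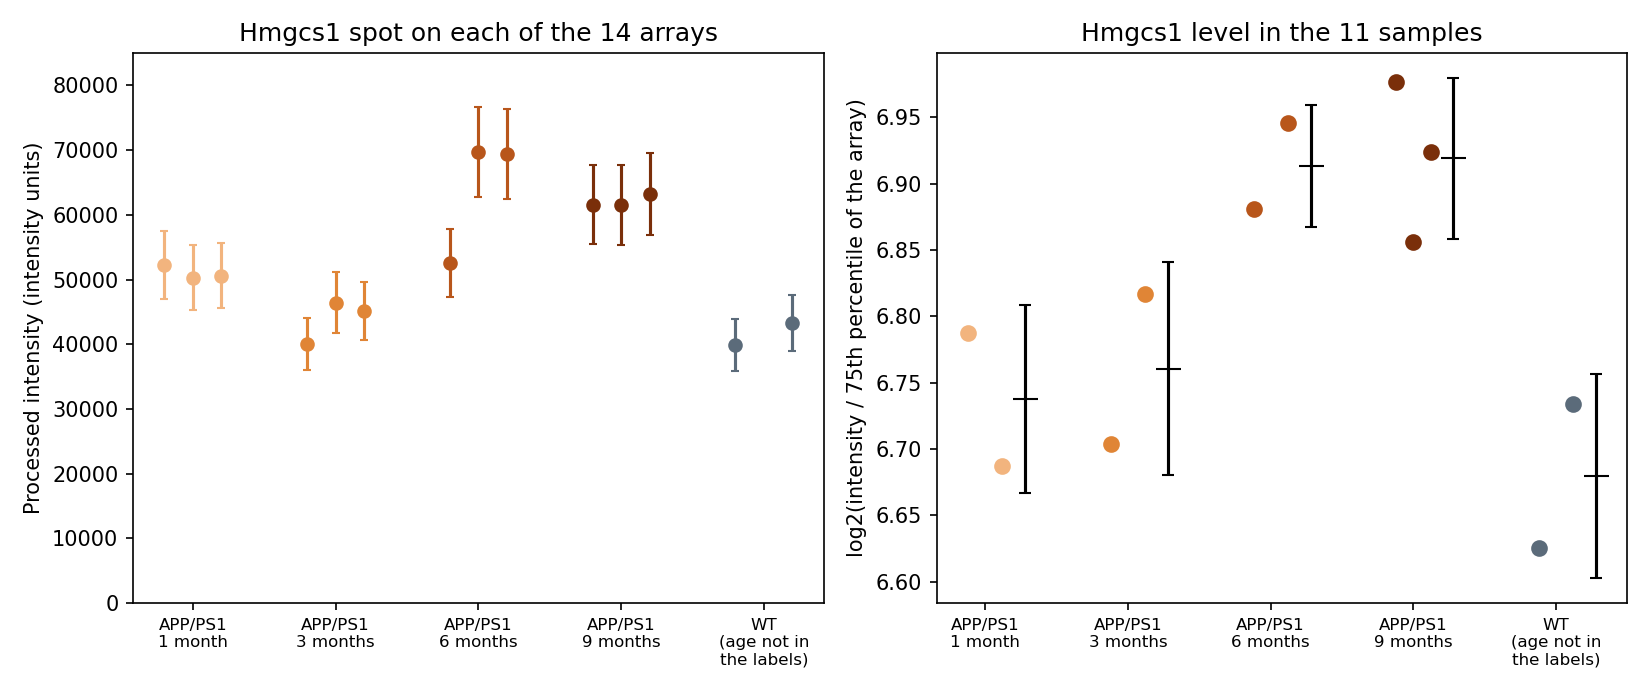
Left, processed intensity of the Hmgcs1 spot on each of the 14 arrays in intensity units, with bars for the scanner software's error of 10%. Right, log2 of the ratio to the array's 75th percentile in the 11 samples, with the mean and SD of each group in black; the axis does not start at 0. The samples of 6 and 9 months lie between 6.86 and 6.98 and those of the other groups between 6.63 and 6.82.

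Against WT, Hmgcs1 rose at 9 months, 1.18-fold (95% confidence interval 1.04 to 1.34), and at no other age did it pass the test. The log2 difference at 9 months was 0.24 (SE 0.078), with a limma adjusted p of 0.0493. All 3 samples lay above both WT samples, as in 33.1% of the probes tested. In that comparison 33.1% of probes were called, 18.5% as higher, and 60.2% of probes had a larger difference in either direction. The call was lost in 17 of 24 alternative settings, including each of the 11 in which 1 sample was left out, where the adjusted p ran from 0.0545 to 0.234. Without WT replicate 1 the log2 difference was 0.19, and without WT replicate 2 it was 0.29. Scan voltage differed between these groups as well, 354 V at 9 months against 356 V in WT.

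At 6 months the point estimate was nearly the same, 1.18-fold (95% confidence interval 1.02 to 1.35), but it did not pass over all probes. The log2 difference was 0.23 (SE 0.086) with a limma adjusted p of 0.0893. Both samples lay above both WT samples, as in 36.1% of the probes tested. In that comparison 23% of probes were called, 13.8% as higher, and 57.8% of probes had a larger difference in either direction. With the 8 arrays scanned at 356 V alone, the log2 difference was 0.24 (limma adjusted p = 0.162). A call appeared in 5 of 27 alternatives, and 2 of these treated the near-identical arrays as independent samples.

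At 1 and 3 months no difference from WT passed. At 1 month the log2 difference was 0.058 (SE 0.086), a ratio of 1.04 with a 95% confidence interval from 0.907 to 1.20, and 9.62% of probes were called. At 3 months it was 0.081 (SE 0.086), a ratio of 1.06 with an interval from 0.922 to 1.21, where 11.4% of probes were called. The limma adjusted p was 0.723 and 0.575. These intervals still allow an increase of the size seen at 6 and 9 months, so similar levels in the young brains and WT are not shown. At 1 month the log2 difference was also larger under 3 other scalings of the arrays, from 0.22 to 0.26, with no call (limma adjusted p from 0.113 to 0.126).

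Taking the mean of all 4 APP/PS1 ages over WT, the log2 difference was 0.15 (SE 0.067), with a limma adjusted p of 0.161, where 17.1% of probes were called. All 9 APP/PS1 samples lay above the lower WT sample and 7 of 9 above the higher one. The share of the probes tested with this pattern was not counted, so whether it is rare is not known. An exact two-sided permutation test took the mean of the 9 APP/PS1 samples minus that of WT, 0.16, in place of the mean of the 4 ages. Over the 11 samples this permutation test gave p = 0.0909, where the smallest value the design allows is 0.0182. This test treats the 9 samples of different ages as alike.

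Comparisons between ages asked whether Hmgcs1 changed within the transgenic line. The largest log2 differences were 0.18 (SE 0.078) for 9 against 1 month and 0.18 (SE 0.086) for 6 against 1 month, with 95% confidence intervals of 0.000042 to 0.36 and -0.023 to 0.38. Those for 9 against 3 months and 6 against 3 months were 0.16 and 0.15. None passed: the limma adjusted p were 0.113, 0.192, 0.166 and 0.296. The probes called in these comparisons made up 35.2% (9 against 1 month), 24.1% (6 against 1 month), 31.1% (9 against 3 months) and 14.5% (6 against 3 months). Between 3 and 1 month 16.1% were called, and between 9 and 6 months 24.8%. The F test across the 4 ages gave a limma adjusted p of 0.167 for Hmgcs1, while 45.4% of probes passed it. With the 14 arrays as separate samples this p was 0.0205, but the near-identical arrays then count as independent.

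**Figure D2:**
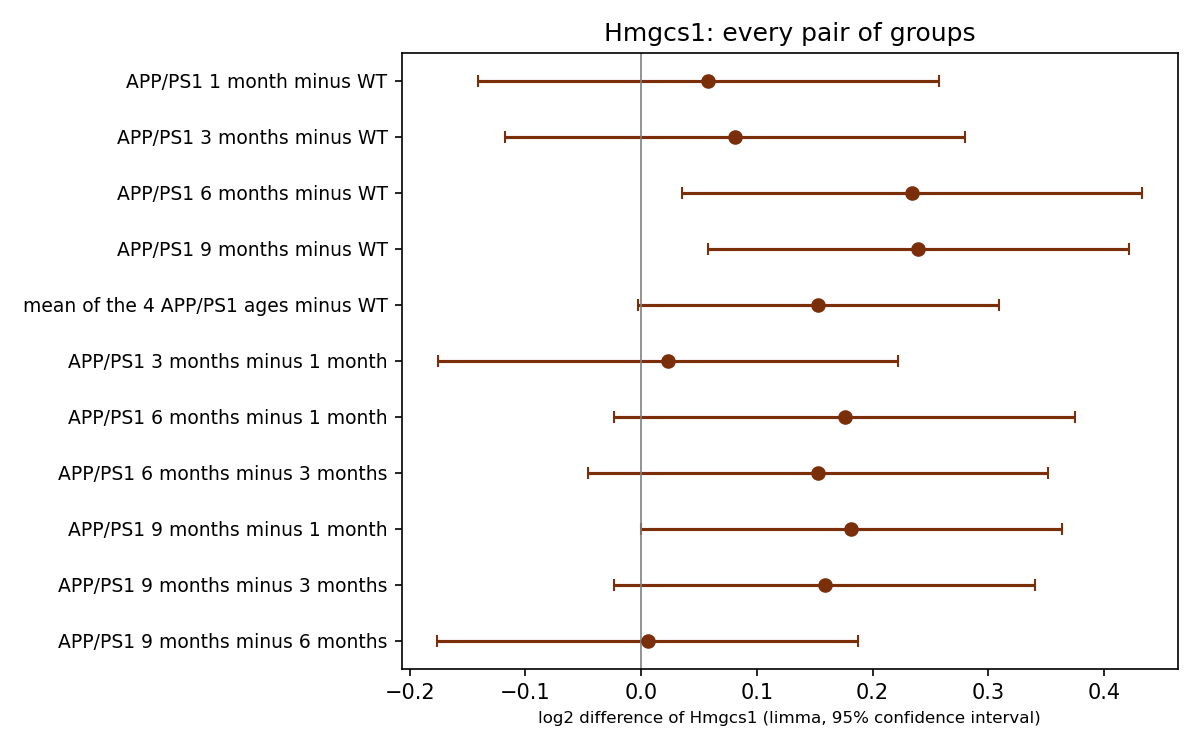
Log2 difference of Hmgcs1 for every pair of groups and for the mean of the ages, first-named minus second-named group, with 95% confidence intervals from limma. The intervals of 6 months minus WT, 0.035 to 0.43, and of 9 months minus WT, 0.058 to 0.42, leave out 0, and that of 9 months minus 1 month touches it.

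The array carries 15 reference genes printed 20 times each, most of them housekeeping genes such as Gapdh, Actb and Tbp, which give a second yardstick within each array. At 6 months the log2 difference of Hmgcs1 against WT lay above those of all 15. At 9 months it lay above those of 13 of 15, the exceptions being B2m and Gusb, with 0.54 and 0.44. At 1 month it lay above all 15, whose median was -0.16 and highest value -0.011 (Rpl13a). Most probes tested did so too at 1 month, since their median was 0.011. At 6 and 9 months the probes tested had medians of 0.067 and 0.035, against -0.11 and -0.096 for these 15 genes. The share of all probes that lay above as many of the reference genes at these ages was not counted. With each array centred on the mean of these genes, the Hmgcs1 values were 2.26 and 2.20 at 1 month, 2.09 and 2.23 at 3 months, 2.28 and 2.50 at 6 months, and 2.32, 2.24 and 2.35 at 9 months, against 1.92 and 2.03 in WT. On this scale all 9 APP/PS1 samples lay above both WT samples, as in 14.8% of the probes tested. The separation of 6 and 9 months from 1 and 3 months did not hold on it. A sample of 9 months, at 2.24, lay below a sample of 1 month, at 2.26.

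Relative to the reference genes and against WT, Hmgcs1 rose 1.33-fold at 6 months (limma adjusted p = 0.0175). At 9 months it rose 1.25-fold (limma adjusted p = 0.0276). Of the probes tested, 30.9% and 33.5% were called in these comparisons. As log2 differences the rises of Hmgcs1 are 0.41 (95% confidence interval 0.18 to 0.64) and 0.33 (0.12 to 0.54). For the mean of the 4 ages the log2 difference was 0.29 (SE 0.078, limma adjusted p = 0.0311, 24.5% of probes called). At 1 month it was 0.26 and at 3 months 0.18, neither past the threshold (limma adjusted p = 0.113 and 0.266). The reference genes were not constant. At 6 months 4 of 15 were called lower and 0 higher on the 75th percentile scale. At 9 months 3 were called lower and 1 higher. Of the probes tested, 9.24% were called lower and 13.8% higher at 6 months, and 14.6% and 18.5% at 9 months. Centring on the reference genes moved the median of the probes tested by 0.18 upwards at 6 months. Relative to that median, Hmgcs1 was higher by 0.17 at 6 months and by 0.21 at 9 months on the 75th percentile scale, a difference that no shift of a whole array alters. It was 0.23 and 0.13 with quantile normalization and 0.61 and 0.59 with normexp background correction.

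**Figure D3:**
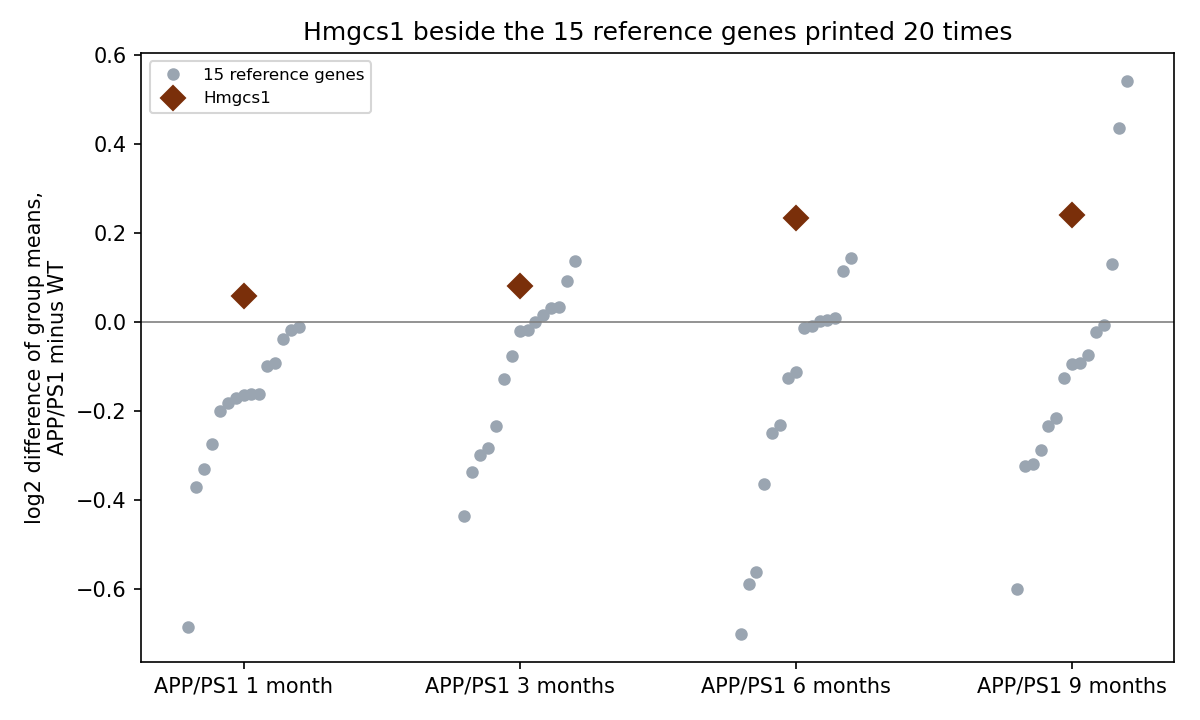
Log2 difference of group means, APP/PS1 minus WT, at each age on the 75th percentile scale, with Hmgcs1 as diamonds and the 15 reference genes as grey points in order of size. Hmgcs1 lies above all 15 at 1 and 6 months and above 13 of 15 at 3 and 9 months. All 15 lie below 0 at 1 month, where the median of the probes tested was 0.011.

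The size of the difference, and at 1 month its sign, moved with the scaling. Against WT the log2 difference at 1 month was 0.23 with quantile normalization and -0.012 with median centring. At 6 months it ran from 0.11 with median centring to 0.41 with centring on the reference genes. At 9 months it was lowest with quantile normalization, at 0.092 (limma adjusted p = 0.371), and highest with normexp background correction, at 0.37. At 3, 6 and 9 months the difference from WT was above 0 in all 5 scalings, which use the same samples. At 3 months it was as low as 0.0066 (SE 0.12), with median centring.

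**Figure D4:**
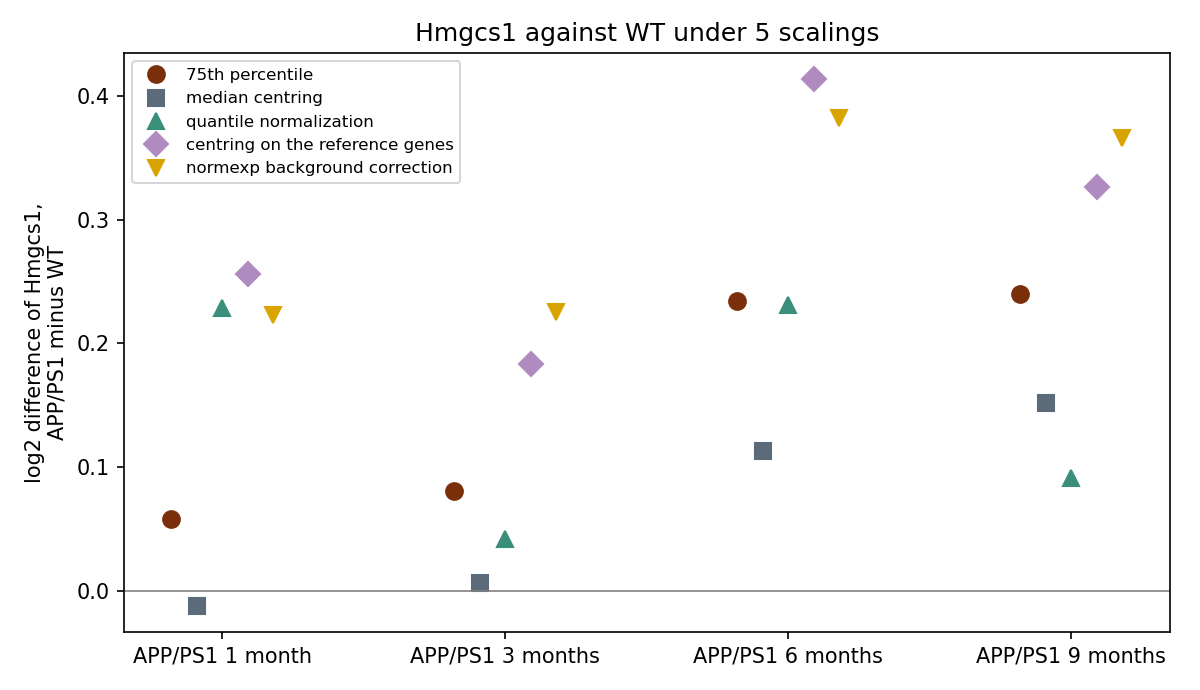
Log2 difference of Hmgcs1, APP/PS1 minus WT, at each age under 5 scalings of the arrays. The values at 6 months lie between 0.11 and 0.41, and the order of the ages differs between scalings.

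Of the 20 genes listed for the mevalonate and cholesterol pathway, Hmgcs1 was the 1 with a named probe. None of the 10 genes listed for control by SREBP2 or of the 8 for cholesterol transport and removal in brain had one. Most probes of the array carry codes with no gene name, so these genes were not looked at by name, and whether Hmgcs1 moved with its pathway was not tested.

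The genes beside Hmgcs1 were measured, and their values were singled out after they had been seen. In RefSeq gene order on chromosome 13, Ccl28 is the protein-coding gene on one side of Hmgcs1, and Nim1k and then Zfp131 follow on the other. Ccl28 encodes a mucosal chemokine, Nim1k a protein kinase and Zfp131 a zinc finger protein. On the log2 scale against the 75th percentile, Ccl28 averaged -3.91, -4.14, -4.53 and 0.62 at 1, 3, 6 and 9 months, against -2.57 in WT. It fell by 1.34, 1.57 and 1.96 against WT at 1, 3 and 6 months (limma adjusted p = 0.0049, 0.0018 and 0.00032) and rose by 3.20 (SE 0.17, limma adjusted p = 1.6e-05) at 9 months. Nim1k averaged -3.70, -3.85, -3.73 and -1.54 at these ages, against -3.42 in WT. It rose by 1.88 (SE 0.43, limma adjusted p = 0.0129) at 9 months. Both probes were far dimmer than that of Hmgcs1, so the falls of Ccl28 rest on dim spots. At 3 months each was well above background on only 2 of 3 arrays. Zfp131 averaged 4.13, 4.30, 4.11 and 4.65, against 4.42 in WT, and its difference from WT did not pass at any age. The difference of Hmgcs1 from WT at 9 months, 0.24, was far smaller than those of Ccl28 and Nim1k on either side of it, and the 9-month arrays alone were scanned at 354 V.

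**Figure D5:**
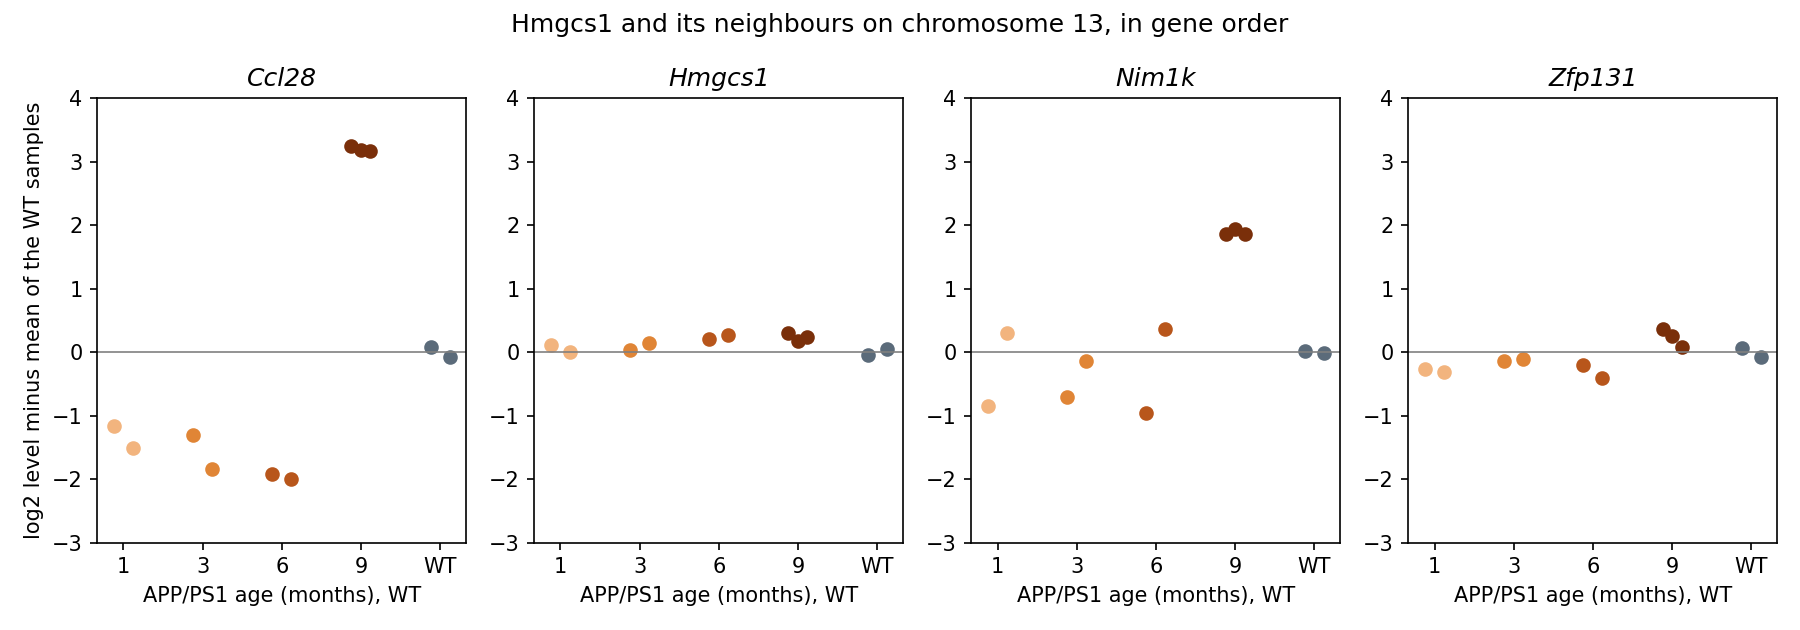
Log2 level minus the mean of the WT samples for Ccl28, Hmgcs1, Nim1k and Zfp131, in their order along chromosome 13, with a point for each of the 11 samples by APP/PS1 age and WT. Ccl28 and Nim1k stand 3.20 and 1.88 above WT at 9 months, where Hmgcs1 stands 0.24 above.

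Among 73 other probes with a gene name that were well above background on every array, the log2 values of B020031M17Rik were the most like those of Hmgcs1 over the 11 samples, with Pearson's r = 0.89 and Spearman's rho = 0.89. Brox, a gene of a Bro1 domain protein, followed with r = 0.80, then Jrkl with 0.78, a probe of 4930526I15Rik with 0.68 and Mia3, needed for collagen secretion, with 0.67. The least alike were a probe of Gm3286 with r = -0.87 and Nono, a paraspeckle protein and one of the reference genes, with r = -0.83. Without the 2 samples farthest from the median of Hmgcs1, r was 0.86 for B020031M17Rik, 0.84 for Brox, 0.65 for Jrkl, 0.50 for 4930526I15Rik, 0.63 for Mia3, -0.80 for Gm3286 and -0.76 for Nono. B020031M17Rik averaged 1.17, 1.89, 2.52 and 2.95 at 1, 3, 6 and 9 months, against 1.02 in WT, a far wider range than that of Hmgcs1. Among 36781 probes known by code, ASMM9PARTA049258 with r = 0.95 and ASMM9PARTA023819 with r = 0.94 were the most alike, and the median r was 0.019. These correlations describe samples that share groups and arrays, and each was picked as the highest or lowest of many.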

How the data were processed

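The deposited scanner files hold, for each spot, a processed signal in linear intensity units, which per the submitters' processing notes came from Agilent Feature Extraction 10.7.1.1, with background subtraction and spatial detrending per the file headers. They also hold flags of 0 or 1. The genome build is not given in the sources used here. A deposited value table of 62513 rows equalled, on all 14 columns with a scanner file, the mean local background intensity within 0.001. Its 15 column medians ran from 27.9 to 36.8, so it holds no expression values and was not used further.

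Control and negative spots were left out, signals were put on the log2 scale relative to the array's 75th percentile. Copies of a probe were averaged without flagged spots, and 134 probes flagged on an array were dropped. Probes well above background on every array of at least 1 group were kept (45901 of 59575). Near-identical arrays were averaged. Group means were fitted with limma 3.58.1 in R 4.3.3, with Benjamini-Hochberg adjustment over all probes and a threshold of 0.05. The fit was tested on simulated data. The number of arrays limits the precision. The p-values set a difference against limma's estimate of the spread between samples within groups. Nothing in the labels says how samples were reared, so they speak for these samples alone.

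The gene and the lists were chosen with earlier results of these data known. Genes named for likeness were the 5 named genes with the highest and the 2 with the lowest correlation with Hmgcs1, and the 2 highest among coded probes. Normexp used the raw median signal of a spot, since the files hold no mean signal. No replicate number pairs samples: every title has the same number, and replicates were numbered in accession order. Alternatives covered background correction, scaling, filters, separate arrays, scan setting, labelled sex, the variance model and each sample left out.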

Additional observations from a re-analysis of the deposited data

How the results depend on the processing

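Filters, the variance model and leaving out a sample of 1, 3 or 6 months cannot change the 9-month difference from WT. Its direction was fixed in these alternatives. The difference was above 0 in all 24 alternatives and called in 7. It was 0.092 with quantile normalization, 0.15 with median centring and 0.24 with no filter on dim probes, a filter of 3 or more arrays, the 2 groups alone and labelled sex as a covariate, and 0.19 to 0.29 without 1 sample, none called. The difference at 6 months against WT passed at 0.41 with centring on the reference genes, 0.38 with normexp, 0.24 with 14 arrays as separate samples, 0.24 with separate arrays, a block for scan voltage and no 9-month arrays, and 0.23 with an intensity trend and robust variance. The mean of the ages passed at 0.29 with the reference genes and 0.30 with normexp. At 1 month against WT the value turned to -0.012 with median centring.

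With 14 arrays, 6 against 1 month passed at 0.20, as did 9 against 1 month at 0.20 and the F test at a limma adjusted p of 0.0205, and 9 against 6 months turned to -0.0052. With separate arrays, the block and no 9-month arrays, 6 against 1 month passed at 0.20. With pairs averaged and no 9-month arrays neither passed (0.23 and 0.18). Between 9 and 6 months the sign also turned with quantile normalization (-0.14), the reference genes (-0.087), normexp (-0.016) and without 1 sample (-0.027 to 0.038). Between 3 and 1 month it turned with quantile normalization (-0.19), the reference genes (-0.073) and without 1 sample (-0.033 to 0.080), and 9 against 1 month turned to -0.14 with quantile normalization. The cause of these turns was not tested. Fits without the 9-month arrays or with 2 groups give no value for the mean of the ages and the F test.

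Over the alternatives the share of probes called ran from 0.728% to 23.6% at 1 month, 0.922% to 23.1% at 3 months, 5.02% to 37% at 6 months and 22.2% to 40.9% at 9 months against WT, and from 6.9% to 29.4% for the mean of the ages. At 9 months 12.4% were higher and 25% lower with normexp, and 22.9% and 10.6% with the reference genes, where the report has 18.5% and 14.6%. At 6 months these pairs were 7.8% and 18.1%, 25.4% and 5.42%, and 13.8% and 9.24%. For the mean of the ages they were 6.65% and 22.8%, 21.2% and 3.24%, and 10.3% and 6.77%. The call share ran from 0.756% to 34.4% (3 against 1 month), 8.18% to 39.7% (6 against 1), 0.83% to 32.5% (6 against 3), 22.3% to 47.2% (9 against 1), 17.2% to 43.1% (9 against 3), 15% to 38.4% (9 against 6) and 30.2% to 64.4% (F test). A lone sample of a group was assumed to vary like the others. Centring on the spots around the Hmgcs1 spot and the 356 V arrays alone were added after the data were seen. No paired analysis was possible because every title carries the same replicate number.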

Other observations

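Quantile normalization changed the order of the ages for Hmgcs1. Against WT it gave log2 differences of 0.23 at 1 month, 0.042 at 3 months, 0.23 at 6 months and 0.092 at 9 months, where the 75th percentile scale gave 0.058, 0.081, 0.23 and 0.24. The Hmgcs1 spot lies near the bright end of each array, and the bright end itself differed between groups. The 99th percentile of all probes, as log2 over the 75th percentile, averaged 6.93 at 1 month, 7.15 at 3 months, 7.09 at 6 months and 7.28 at 9 months, against 7.11 in WT. It was lowest at 1 month, where quantile normalization raised the Hmgcs1 difference, and highest at 9 months, where it lowered it. Its part in the result was not tested.

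On the log2 scale, the male-labelled sample minus the female-labelled one was 0.10 at 1 month, -0.11 at 3 months and -0.065 at 6 months. In WT it was -0.11. Each of these groups had 1 sample of each sex, so sex and sample cannot be told apart. At 9 months the male sample minus the mean of the 2 female samples was 0.087. The sign was not the same in all groups.

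Around the Hmgcs1 spot, within 20 rows and columns, 1022 spots well above background deviated from their own means by a median of -0.056 to 0.061 on the log2 scale over the arrays. With each array centred on these spots, the difference at 9 months against WT was 0.30 (limma adjusted p = 0.0263), and that at 6 months was 0.23 (limma adjusted p = 0.111). With this centring, added after the data were seen, 31.1% of all probes were called at 9 months and 20.6% at 6 months.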
